A study of Homo sapiens with 8 samples.

Results

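KANK4, MYO7B and PRR5L are protein-coding genes that the study singles out in its account of the epithelial-mesenchymal transition (EMT) of MCF10A cells, and the accessible chromatin around them is described here. The genes were selected on values measured in these cells, and their regions were found by merging the 4 deposited peak lists wherever peaks shared at least 1 bp and keeping each merged region that overlapped the gene body or its 100 kb flanks. This gave 87 of 126658 regions, of which 27 lay around KANK4, 27 around MYO7B and 33 around PRR5L. Because the genes were named with these data in view, the values below are a description, and no p-value is attached to them.

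MCF10A is an immortalised, non-tumorigenic line of human mammary epithelial cells, with no genetic change stated in the labels. It was cultured with solvent or with 5 ng/mL transforming growth factor beta 1 (TGFβ1) for 6, 24 or 72 h. Accessibility was measured by the assay for transposase-accessible chromatin with sequencing (ATAC-seq), in which a transposase inserts adapters into DNA that is not shielded by nucleosomes. There were 8 libraries, 2 per condition, and peaks were called on both libraries of a condition together, so that each condition is 1 list without a spread between replicates. All comparisons share the solvent list, and no test could be made. All 5 promoters of epithelial genes looked up as a check on the cells (CDH1, EPCAM, KRT5, KRT14 and TP63) carried a solvent peak, and none of 5 promoters of blood cell genes did. This separates epithelial from blood cells and does not identify the line. The labels put the solvent samples at 0 h, whereas the study's design gives solvent for 72 h.

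TGFβ1 signals through a pair of serine/threonine kinase receptors that phosphorylate SMAD proteins, which enter the nucleus and bind DNA together with other factors, often AP-1 (dimers of JUN and FOS proteins). In mammary epithelial cells this signal can start EMT, in which cells lose their junctions, rebuild the actin cytoskeleton and lay down matrix. All 3 genes code for proteins linked to the cytoskeleton or to kinases that act on it. KANK4 belongs to the KANK family of ankyrin repeat proteins, which connect talin in focal adhesions with the cell cortex. MYO7B encodes myosin VIIB, an unconventional myosin of the tips of brush border microvilli. PRR5L, also called Protor-2, binds the RICTOR subunit of mTOR complex 2, a kinase complex that acts on AKT, protein kinase C and the actin cytoskeleton.

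A selection of regions is shown first, so that they can be read beside their values. Each is the plus strand of GRCh38 from 100 bp before to 100 bp after the summit of the strongest peak. The last is the only region of the loci with a SMAD motif in this window. The others have large differences or are strong elements beside such regions. Not every region with a large difference is printed, so the selection does not show how often motifs occur. Regions are named by the distance of their nearest edge from the start of the gene's canonical transcript, upstream or downstream in the direction of transcription. Capitals mark the AP-1 motif TGACTCA or its reverse complement, except in the last sequence, where they mark the palindromic SMAD motif GTCTAGAC. Sequences without capitals hold neither motif in this window.
KANK4 14.0 kb upstream, chr1:62333642-62333842: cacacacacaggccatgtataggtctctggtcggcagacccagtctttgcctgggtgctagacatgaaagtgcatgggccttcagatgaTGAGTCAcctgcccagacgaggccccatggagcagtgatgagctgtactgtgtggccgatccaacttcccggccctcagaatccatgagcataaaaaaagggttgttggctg
KANK4 1.7 kb upstream, chr1:62321589-62321789: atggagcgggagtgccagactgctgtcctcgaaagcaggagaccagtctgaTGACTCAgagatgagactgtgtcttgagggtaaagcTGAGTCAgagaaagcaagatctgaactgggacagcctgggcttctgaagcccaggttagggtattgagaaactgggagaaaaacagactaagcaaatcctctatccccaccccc
MYO7B 87.7 kb downstream of the start, intron 29, chr2:127623751-127623951: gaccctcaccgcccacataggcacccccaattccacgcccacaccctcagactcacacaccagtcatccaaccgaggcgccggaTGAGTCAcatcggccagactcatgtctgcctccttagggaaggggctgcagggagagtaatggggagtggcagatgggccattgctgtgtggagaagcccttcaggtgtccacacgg
MYO7B 101.9 kb downstream of the start, past the gene end, chr2:127637733-127637933: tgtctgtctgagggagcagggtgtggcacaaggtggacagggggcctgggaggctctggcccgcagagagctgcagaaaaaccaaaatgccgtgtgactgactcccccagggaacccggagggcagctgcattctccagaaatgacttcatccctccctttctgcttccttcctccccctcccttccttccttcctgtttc
PRR5L 37.0 kb downstream of the start, intron 1, chr11:36333532-36333732: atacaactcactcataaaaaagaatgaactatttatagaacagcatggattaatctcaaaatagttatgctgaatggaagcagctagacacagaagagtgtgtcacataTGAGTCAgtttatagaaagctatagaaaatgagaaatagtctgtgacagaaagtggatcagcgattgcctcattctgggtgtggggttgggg
PRR5L 58.3 kb downstream of the start, intron 1, chr11:36354684-36354884: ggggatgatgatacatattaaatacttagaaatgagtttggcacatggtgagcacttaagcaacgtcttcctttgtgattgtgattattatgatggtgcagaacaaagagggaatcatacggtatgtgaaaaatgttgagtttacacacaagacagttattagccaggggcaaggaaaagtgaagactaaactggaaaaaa
PRR5L 88.8 kb downstream of the start, intron 1, chr11:36385134-36385334: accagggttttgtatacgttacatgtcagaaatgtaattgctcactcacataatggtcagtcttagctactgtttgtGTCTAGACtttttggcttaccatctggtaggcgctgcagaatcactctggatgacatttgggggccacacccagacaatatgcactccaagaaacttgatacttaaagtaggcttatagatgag

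The measure given for each region is the area under the curve (AUC) that the peak caller Genrich assigned to a peak, summed over the peaks of the region in a list. It adds up significance over the bases of a peak and therefore grows with read depth and with the length called. The lists were not scaled to each other, and read totals were not used here. Each TGFβ1 list was divided by its median ratio to solvent at regions within 3 kb of a transcription start site (TSS), which was 0.44 on the log2 scale after 6 h, 0.38 after 24 h and 0.25 after 72 h. The resulting scaled AUC is the quantity meant below. Where the AUC per base of called peak is given, it was scaled in the same way by its own median ratio at these regions, which was smaller (0.3, 0.26 and 0.18). A region was called gained at a time when the TGFβ1 list had a peak there and solvent had none, lost in the reverse case, and raised or lowered when both lists had a peak and the scaled AUC differed at least 2-fold. The lists hold no peak with an AUC below 200, so a region without a peak is one that stayed under that threshold, and no fold is given against it. Gained and lost calls rest on the unscaled lists. A gained region can therefore have a scaled AUC below 200, down to 149, 154 and 169 at the loci at 6, 24 and 72 h. Such a weak region need not have been less accessible in solvent.

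To see how far the loci as a whole changed, the calls were first counted. At 6 h, 22 of the 67 regions with a peak in either list were gained, or 32.8%, where 22.9% of such regions over the genome were. At 24 h the count was 38 of 83 (45.8%, against 29.8% over the genome), and at 72 h it was 30 of 75 (40.0%, against 29.3%). The 3 loci thus held a larger share of gained regions than the genome at each time. Many gained regions were weak, at the loci as over the genome. Their median scaled AUC at 6, 24 and 72 h was 217.6, 269.9 and 389.3 at the loci and 223.7, 267.3 and 303.9 over the genome. In bulk cells, more cells with an open region and a more open region per cell cannot be told apart. None was lost at 6 or 24 h and 1 was lost at 72 h, where 0.551%, 1.31% and 2.43% of regions were lost over the genome. Among shared regions, 7 of 45 were raised at 6 h, 8 of 45 at 24 h and 11 of 44 at 72 h, which is 15.6% and 17.8% at the first 2 times. Over the genome the raised shares were 3.45%, 8.37% and 10.5%. No shared region of the loci was lowered, and lowered regions were rare over the genome, at 0.215%, 0.935% and 1.23%. The median log2 ratio of scaled AUC to solvent at the shared regions of the loci was 0.42 after 6 h, 0.52 after 24 h and 0.55 after 72 h, and that of all shared regions was 0.06, 0.12 and 0.15.

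The loci contributed unequally to these counts. KANK4 had 8, 12 and 10 gained regions at 6, 24 and 72 h, which was 38.1%, 48.0% and 43.5% of its regions with a peak in either list. MYO7B had 9, 15 and 11, or 45.0% and 57.7% at the first 2 times and 11 of 22 at 72 h. Its regions gained at 6 h were weak, with a median scaled AUC of 176. With a minimum AUC of 400, MYO7B had 2 gained regions at 6 h, KANK4 had 6 and PRR5L had 7. PRR5L had 5, 11 and 9, or 19.2%, 34.4% and 9 of 30, so that its share was below that of the genome at 6 h and near it at 72 h. Raised regions were 3, 3 and 4 of 13 at KANK4, 2, 2 and 2 of 11 at MYO7B, and 2 of 21, 3 of 21 and 5 of 20 at PRR5L. The median log2 ratio at 72 h was 0.76 at KANK4, 0.53 at MYO7B and 0.45 at PRR5L. All 13 shared regions of KANK4 lay above 0 at 72 h, as did 7 of 11 at MYO7B and 17 of 20 at PRR5L. Summed over a locus, the scaled AUC at 72 h was 1.94 times that of solvent at KANK4, 1.54 times at MYO7B and 1.76 times at PRR5L. In these sums a region without a peak counted as 0, although it is only known to lie under the threshold. The ratios thus mix gained with shared regions and are larger than they would be with the missing solvent values.

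**Figure D1:**
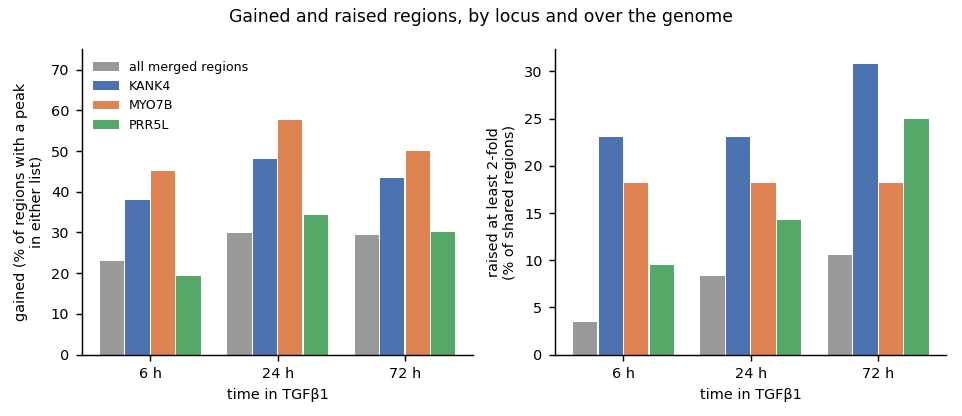
Bars give, for each time in TGFβ1, the share of regions gained (left, percent of regions with a peak in that list or in solvent) and raised at least 2-fold (right, percent of shared regions) for all merged regions and for each locus, with no error bars because each condition is 1 pooled list. MYO7B has the highest gained share at each time, PRR5L is at 19.2% against 22.9% over the genome at 6 h, and KANK4 has the highest raised share at each time. The MYO7B share at 6 h rests on weak peaks (median scaled AUC 176).

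Windows of the same kind were laid around all 19604 protein-coding genes to place these counts. The median window held 17 regions, with 2 gained after 6 h, 3 after 24 h and 3 after 72 h, and the 90th percentile was 6, 7 and 7 gained regions. At 24 and 72 h each of the 3 genes lay above the 90th percentile, and PRR5L was below it at 6 h with 5. Windows differ in size, so the share is a fairer scale. Of the regions with a peak in either list at 72 h, a median of 20.8% per gene were gained, with a 90th percentile of 45.5%, which was passed by MYO7B (11 of 22) and not by KANK4 (43.5%) or PRR5L (9 of 30).

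The most frequent pattern among regions without a solvent peak was early and lasting, at the loci as over the genome. A peak at 6, 24 and 72 h with none in solvent was found in 18 of the 87 regions, or 20.7%, where 14.3% of all regions had this pattern. Another 9 had a peak at 24 and 72 h only (10.3%, against 7.55%), and 9 at 24 h only (10.3%, against 3.42%). Just 2 regions had a peak at 72 h only (2.3%, against 4.61%). A peak in every list was found in 44 regions, or 50.6%, where 62.6% of all regions had one. These shares are of all regions, and a smaller part of the locus regions had a peak in solvent. Higher shares of patterns without a solvent peak are therefore not by themselves a difference in timing. The regions that appeared at 24 h alone were weak, with a scaled AUC between 154 and 265.

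**Figure D2:**
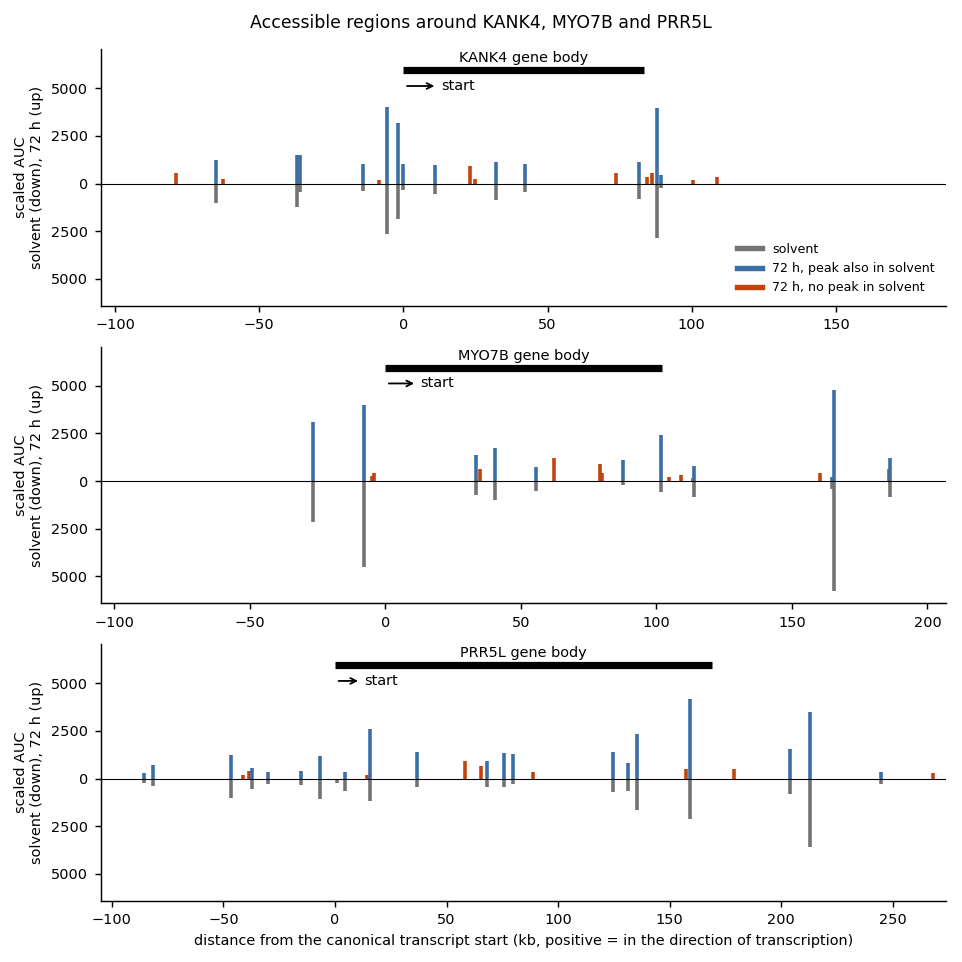
Each vertical line is a merged region at its distance (kb) from the canonical transcript start, with the scaled AUC in solvent drawn downward and at 72 h upward on a common linear scale, and the black bar marks the gene body. Red lines, regions without a solvent peak, stand inside and on both sides of each gene, and the tallest regions with nearly equal arms at MYO7B and PRR5L are the promoters of IWS1, SFT2D3 and TRAF6.

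At KANK4 (ENSG00000132854.19, chromosome 1, 62236165 to 62319434, minus strand), the promoter itself was raised. The region over the canonical start (62318891 to 62319516), whose summit lay in the 5′ UTR of exon 1, had a scaled AUC of 342 in solvent, 909 after 6 h, 1098 after 24 h and 1017 after 72 h. It was 2.66-fold above solvent after 6 h, 3.21-fold after 24 h and 2.97-fold after 72 h, so that most of the difference was present by 6 h. The called peak was 296 bp long in solvent and 616 bp at 72 h, and the AUC per base was 1.5-fold higher at 72 h. The 250 bases before this start, from the RefSeq promoter table (GRCh38.p14, minus strand, written in the direction of transcription), are printed because the raised region reaches into them.
KANK4 promoter: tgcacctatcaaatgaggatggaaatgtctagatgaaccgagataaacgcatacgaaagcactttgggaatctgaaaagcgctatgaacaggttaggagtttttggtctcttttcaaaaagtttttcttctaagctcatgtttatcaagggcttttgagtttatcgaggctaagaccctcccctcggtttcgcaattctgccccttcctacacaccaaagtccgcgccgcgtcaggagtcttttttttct
They hold none of the AP-1, SMAD and E-box motifs searched for here on either strand. TGACTCA was found in 4.2% of the 35116 promoter windows of this length.

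Upstream of KANK4 the differences formed a row of elements. The region 35.7 kb upstream had a scaled AUC of 423 in solvent, 1147 after 6 h, 1513 after 24 h and 1499 after 72 h. This was the largest fold of the locus, 3.55 at 72 h, and it came with a longer peak (299 bp in solvent, 548 bp at 72 h) and a 2.03-fold higher AUC per base. Its neighbour 36.9 kb upstream went from 1209 in solvent to 1292, 1435 and 1511, a log2 ratio of 0.32 at 72 h. The region 14.0 kb upstream, with its AP-1 motif 8 bp from the summit, had 376 in solvent and 787, 909 and 1008 under TGFβ1. Its fold at 72 h was 2.68, and 1.21 in AUC per base. The strongest elements of the locus changed less. The region 88.1 kb from the start, past the gene end, had the highest AUC in solvent and went from 2828 to 3444, 3936 and 3975, a log2 ratio of 0.49 at 72 h. The region 5.7 kb upstream went from 2661 to 3345, 3579 and 4012, and that 1.7 kb upstream, with 2 AP-1 motifs, from 1832 to 2767, 3026 and 3201, which are log2 ratios of 0.59 and 0.81 at 72 h.

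Inside KANK4, the raised region was in intron 2, 42.2 kb from the start, with 419 in solvent, 646 after 6 h, 835 after 24 h and 1047 after 72 h. Unlike the promoter it was still higher at each later time. The strongest gained region lay in intron 1, 23.0 kb from the start, absent from the solvent list, and had 284, 759 and 933 after 6, 24 and 72 h. The next, in intron 9 (73.9 kb), had 170, 495 and 580 and an AP-1 motif 5 bp from its summit. Both were gained by 6 h and reached most of their AUC later. Outside the gene, gained regions of similar size were found 79.0 kb upstream (323, 419 and 573) and, past the gene end, 86.2 kb (376, 523 and 550) and 84.4 kb (300, 332 and 357) from the start. The shared regions with the smallest ratios at 72 h were those 65.1 kb upstream (0.25), 36.9 kb upstream (0.32) and 32.2 kb downstream (0.38). The region over the last exon, 81.7 kb from the start, went from 782 in solvent to 1155 at 72 h, but its peak grew from 289 to 881 bp and its AUC per base fell by 0.97 on the log2 scale. The remaining gained regions of the locus had a scaled AUC of at most 324 in any list.

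**Figure D3:**
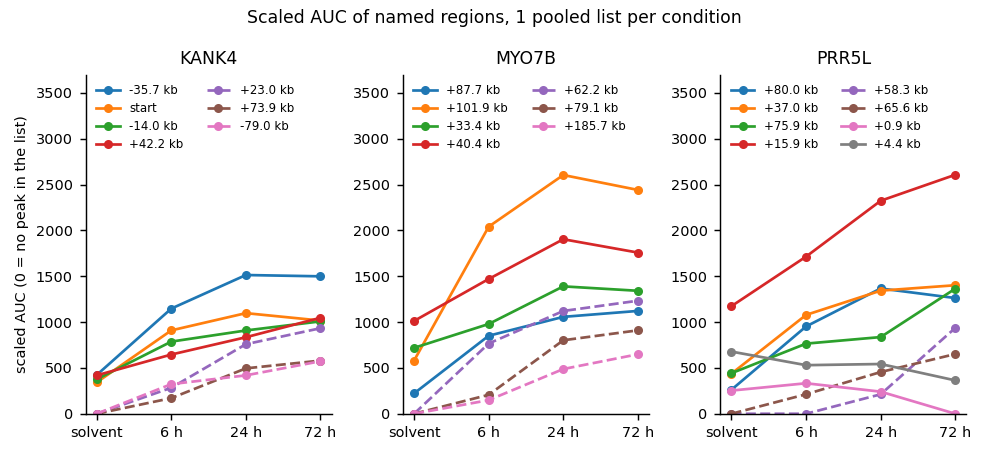
Lines follow the scaled AUC (linear axis from 0) of named regions through the 4 pooled lists, with dashed lines for regions that had no peak in solvent, where 0 stands for no peak. The region past the MYO7B gene end goes from 580 to 2604 at 24 h, the PRR5L region at 58.3 kb appears late (212 at 24 h, 936 at 72 h), and the PRR5L regions at 0.9 and 4.4 kb are lowest at 72 h.

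At MYO7B (ENSG00000169994.20, chromosome 2, 127535683 to 127637729, plus strand), no accessible region covered the canonical start in any list, and the differences lay in the introns and past the gene end. The nearest region, 4.3 kb upstream, had a peak at 24 h (330) and 72 h (399) only. An internal transcript start, 84.2 kb downstream, carried a peak at 24 h alone (185). No start of MYO7B was therefore covered by a peak in more than 1 list. In the RefSeq table, neither the 250 bases before the canonical start nor those before a start in the internal stretch hold TGACTCA.

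The strongest region gained at MYO7B was in intron 19, 62.2 kb from the start, with no peak in solvent and a scaled AUC of 766 after 6 h, 1121 after 24 h and 1233 after 72 h. It is also the gained region with the largest AUC of all 3 loci at each time. In intron 26 a pair of regions opened 79.1 and 79.8 kb from the start. The former had 207, 802 and 910, and the latter 243, 395 and 435. The region in intron 6 (35.0 kb) had no peak at 6 h and 450 and 637 at 24 and 72 h, and lies between shared regions in intron 5 (33.4 kb, 719 in solvent and 1341 at 72 h) and intron 7 (40.4 kb, 1012 and 1758). A gained region inside the neighbouring gene WDR33, 185.7 kb from the MYO7B start, had 149, 488 and 649, beside a shared region (186.3 kb) with 845 in solvent and 1230 at 72 h. The other gained regions downstream of MYO7B were at most 611 in any list.

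Both raised regions of the locus lay at the 3′ end of the gene. The one in intron 29 (127623383 to 127624077) had 222 in solvent, 851 after 6 h, 1057 after 24 h and 1122 after 72 h, folds of 3.83, 4.76 and 5.05. This was the largest fold of any shared region in the 3 loci at 72 h. Its peak was 175 bp long in solvent and 688 bp at 72 h, and the AUC per base differed 1.35-fold, so most of the AUC ratio was in the length called. The region across the gene end (127637629 to 127638814), between MYO7B and LIMS2, had 580, 2041, 2604 and 2441 in solvent and at 6, 24 and 72 h. Here the AUC per base was also higher, 2.32-fold at 72 h, with a peak of 593 bp in solvent and 1127 bp at 72 h, and there was no AP-1 motif in the window or in the whole region. The summit −log10 q deposited for this region was 4.32 in solvent and 7.77 at 72 h.

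The promoters of IWS1 and SFT2D3, which lie in the same window, differed little. The scaling sets the median log2 ratio of regions within 3 kb of a TSS to 0, so small ratios at promoters are in part built in. The region over the IWS1 start, 7.9 kb upstream of MYO7B, had 4516 in solvent and 3971 at 72 h, and that over the SFT2D3 start 5772 and 4752, log2 ratios of -0.19 and -0.28. At LIMS2 no region of any list covered the canonical start, the nearest lying 20595 bp from it. The regions that differed lay at or near other LIMS2 starts. The raised region past the MYO7B gene end lies 1589 bp from a LIMS2 start, and a region over a LIMS2 start, 104.7 kb from that of MYO7B, had a peak at 72 h alone (209). The lowest ratio of the locus was at a region 551 bp from the SFT2D3 start, with 412 in solvent, 424 after 6 h, 399 after 24 h and 232 after 72 h. Its log2 ratio at 72 h, -0.83, did not reach the 2-fold limit.

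At PRR5L (ENSG00000135362.14, chromosome 11, 36296288 to 36465204, plus strand), the differences depended on which transcript start was looked at. GENCODE lists 20 transcripts of PRR5L with 18 different starts spread along the gene. No region of any list covered the canonical start, and the regions 0.9 and 4.4 kb downstream of it were lowest at 72 h. The region 0.9 kb downstream of it had 253 in solvent, 333 at 6 h, 241 at 24 h and no peak at 72 h, and is the only region of the 3 loci that was lost. The region 4.4 kb downstream, 32 bp from another PRR5L start, had 678, 530, 543 and 364, log2 ratios of -0.36, -0.32 and -0.90. Its scaled AUC was thus lower than in solvent at each time, without reaching 2-fold.

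Regions covering internal starts farther into the gene went the other way. The region 80.0 kb downstream (36376319 to 36377708), in intron 1 of the canonical transcript and covering starts of shorter transcripts, had 262 in solvent, 952 after 6 h, 1367 after 24 h and 1262 after 72 h. These are folds of 3.63, 5.21 and 4.82. The called peak was 235 bp long in solvent, while the peaks there summed to 1193 bp at 6 h, 1382 bp at 24 h and 1269 bp at 72 h. The AUC per base was 0.94 times that of solvent at 72 h, so that a larger stretch was called accessible at about the same mean level. A region over a start 65.6 kb downstream was gained, with 213, 455 and 651, and another over a start 157.5 kb downstream with 229, 551 and 518. Close to the latter, the region 159.1 kb downstream, 104 bp from a start and the strongest of the locus by 72 h, had 2147 in solvent, 2865 after 6 h, 3872 after 24 h and 4171 after 72 h. Its log2 ratio of 0.96 came with little change in length (984 and 1105 bp) and an AUC per base 1.82-fold higher.

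Among the regions within 3 kb of any TSS, 4 of 16 shared ones in the 3 loci were raised at 6 h, 4 of 16 at 24 h and 5 of 15 at 72 h. Over the genome 2.07%, 4.8% and 5.66% of such regions were raised. The 5 at 72 h were the KANK4 start, the region past the end of MYO7B, the MYO7B region in intron 29, and the PRR5L regions at 68.3 and 80.0 kb. Of these, 2 cover a start of a member gene.

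The other PRR5L regions raised at 72 h were all in its long intron 1. The region 37.0 kb from the start, with an AP-1 motif 12 bp from the summit, had 437 in solvent and 1078, 1343 and 1402 under TGFβ1, and its peak went from 265 to 743 bp with an AUC per base 1.2-fold higher at 72 h. The region at 75.9 kb had 442, 765, 836 and 1364 and was the one with the largest step between 24 and 72 h among the raised regions. At 15.9 kb the values were 1174, 1714, 2323 and 2607, and at 68.3 kb they were 457, 636, 749 and 921, just past the 2-fold limit. Outside the gene, a region 81.4 kb upstream, inside LDLRAD3, had 388, 592, 777 and 722 and was counted as raised at 24 h only. The strongest gained region at 72 h, 58.3 kb from the start, had no peak in solvent or after 6 h, 212 after 24 h and 936 after 72 h. No other gained region of the 3 loci differed as much between 24 and 72 h, and no AP-1 or SMAD motif is in its window.

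Further gained regions of PRR5L were found 178.8 kb from the start, past the gene end, with 402 at 24 h and 519 at 72 h, and 88.8 kb from the start with 439 and 367. The gained region 38.6 kb upstream had 338, 284 and 380 and an AP-1 motif 5 bp from its summit. The region 88.8 kb from the start holds the SMAD motif printed above, and it is the 1 region of 87 with this motif in the window, or 1.15%, where 0.295% of all regions have it. The shared regions with the smallest ratios at 72 h were that at 4.4 kb, the TRAF6 promoter (3615 in solvent and 3475 at 72 h, log2 ratio -0.06) and a region 37.2 kb upstream (553 and 543, -0.03). The region over the COMMD9 start, 6.5 kb upstream of PRR5L, had 1082 in solvent and 1188 at 72 h, a log2 ratio of 0.14.

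Since the AUC grows with the length called, ratios were also taken per base of called peak. All 11 regions raised at 72 h were longer than in solvent, between 1.3 and 5.4 times with a median of 2.08. They were chosen by their AUC, so greater length is in part built into this choice. The median over the shared regions of the loci was 1.35, and over all shared regions of the genome 1.08. Per base, 9 of the 11 were above solvent, 5 by at least 1.5-fold and 2 by at least 2-fold. These 2 were the KANK4 region 35.7 kb upstream (2.03-fold) and the region past the MYO7B gene end (2.32-fold), and at 6 h only the latter passed. With the scaling of the summed AUC in place of that per base, the former fell below the limit (1.93-fold) and the latter stayed above it (2.21-fold). Together the loci had 1, 2 and 2 regions raised per base at 6, 24 and 72 h, and over the genome 0.84%, 2.51% and 3.11% of shared regions were. The median log2 ratio per base at the loci was -0.06, 0.02 and 0.17, and that of all shared regions 0.02, 0.06 and 0.06. At the shared regions the loci were thus closer to the genome per base than in summed AUC. The gained regions have no solvent value to divide by, so this does not bear on them.

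**Figure D4:**
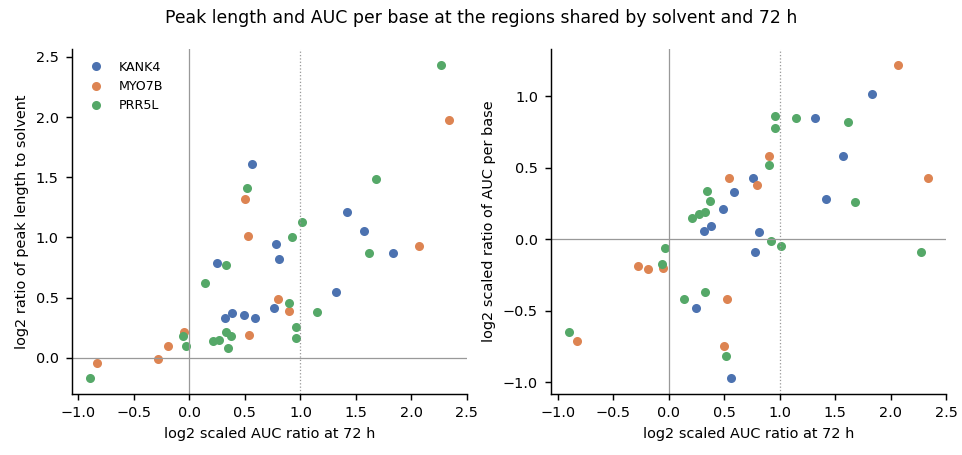
Each point is a region with a peak in solvent and at 72 h, plotted by its log2 ratio of scaled AUC (dotted line at 2-fold) against the log2 ratio of called peak length (left) and of scaled AUC per base (right). All 11 points right of the dotted line lie above 0 in the left panel, and 9 of them do so in the right panel, where the PRR5L region at 80.0 kb is at -0.09.

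AP-1 motifs were counted to ask whether sequence set the loci apart. TGACTCA was found on either strand within 100 bp of the summit in 30 of the 87 regions, or 34.5%, and in 32.3% of all regions. KANK4 had it in 13 of 27 (48.1%), MYO7B in 8 of 27 (29.6%) and PRR5L in 9 of 33 (27.3%). Of the regions gained at 72 h, 10 of 30 held it (33.3%, against 39.9% of all gained regions), and of those raised at 72 h 4 of 11 (36.4%, against 47.2%). The loci together were thus near the genome in this respect, with KANK4 above it. The largest differences were found at regions of both kinds. The motif was in the MYO7B regions of intron 29, with the largest fold, and of intron 19, the strongest gained one. It was not in the regions past the end of MYO7B and 80.0 kb into PRR5L. With any middle base (TGANTCA, which includes TGACTCA) the shares were 41.4% and 40.5%. The E-box CACCTG, bound by SNAIL and ZEB proteins, was in 19 regions (21.8%, against 17.9%), and TGACGTCA was in none (0.52% of all regions).

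For comparison, related genes from fixed lists were given windows of the same kind. KANK1, KANK2 and KANK3 had 7, 2 and 4 regions gained at 72 h, or 17.9%, 7.69% and 16.7%, and no raised region, so that KANK4 had the highest gained share of its family. Among myosin VIIA and the partners of myosin VIIB in microvilli, the gained counts at 72 h ran from 1 at CDHR2, a protocadherin of microvillar tips, to 10 at MYO7A, and the highest share was 55.6% at USH1C, a scaffold protein. In mTOR complex 2 they ran from 2 at MTOR, the kinase, to 9 at MAPKAP1 and at RICTOR, both subunits of the complex. The shares were 14.3% at MTOR, 31.0% at MAPKAP1 and 9 of 18 regions at RICTOR, the latter pair above PRR5L (9 of 30), and PRR5, the paralogue of PRR5L, had 4 (23.5%). Of 7 other genes the study names, SPARC had the fewest (4) and CUX2 and FBN1 the most (9 each), and FBN1, which encodes the microfibril protein fibrillin-1, also had 8 raised regions, more than any of the 3 genes here. These 7 genes too were picked by the study on these cells.

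The time course over the gene body and 3 kb on either side was then matched across the genome. A region without a peak in a list again counted as 0 in the sums, at the members as at all genes. The log2 ratio of summed scaled AUC to solvent was 0.85, 1.06 and 1.22 at KANK4, 1.22, 1.82 and 1.83 at MYO7B, and 0.60, 1.06 and 1.12 at PRR5L, where the 90th percentile of 10231 genes with at least 3 regions was 0.41, 0.64 and 0.69. By the Euclidean distance over these 3 ratios, the nearest protein-coding genes were ANKFN1, FGF12 and RXFP1 for KANK4 (distances 0.018 to 0.051) and KCNH5, NME9 and FILIP1 for PRR5L (0.034 to 0.058). With 3 values per gene and 10231 genes, near matches are common, and nothing is read from them.

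The 100 kb limit decided which regions were counted. With 250 kb in its place, the gained regions at 24 h numbered 13 at KANK4, 18 at MYO7B and 15 at PRR5L, and at 72 h they numbered 10, 12 and 14. At KANK4 the closest region outside was 4.8 kb past the limit (478 in solvent, 439 at 72 h) on one side, and on the other it was the USP1 promoter, 16.5 kb past it (6239 and 5608). The outermost regions inside were 74.4 kb from the limit (gained, 324 at 72 h) and 11.9 kb from it (a peak at 24 h only, 171). At MYO7B the closest outside were 11.9 and 11.8 kb past the limit (543 and 312 in solvent, 645 and 558 at 72 h), and the outermost inside, 73.5 and 15.7 kb from it, had 2166 and 845 in solvent and 3117 and 1230 at 72 h. At PRR5L they were 9.5 and 29.1 kb past it (849 and 2384 in solvent, 974 and 2658 at 72 h), and the outermost inside, 14.5 and 0.7 kb from it, had 239 and no peak in solvent, and 301 and 278 at 72 h.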

How the data were processed

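ATAC-seq was done on MCF10A cells in 4 conditions with 2 libraries each. The authors trimmed reads with Trimmomatic 0.38, aligned them to GRCh38 with Bowtie2 2.4.5, removed duplicates with Picard and filtered with SAMtools 1.4.1. Genrich 0.5 then called peaks on both libraries of a condition together, with blacklisted regions removed. The deposited signal of a peak is its AUC (area under the significance curve, at least 200), which was not scaled between lists, and the −log10 q that the authors deposited (an adjusted p-value) belongs to its summit and was at least 2.81. The lists held 86209, 107656, 118433 and 116720 peaks in solvent and at 6, 24 and 72 h, and the depth left per library after filtering is not given in the files.

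Lists were merged, scaled and called as described above in Python 3.11.15 (numpy 2.4.6, pandas 2.3.3), with genes and starts from GENCODE release 44 and sequence from GRCh38 of the same build. Regions named were those within 3 kb of a member's start, at most 5 gained and 5 shared regions of largest scaled AUC or ratio at 72 h and 3 shared ones of smallest ratio per locus, and every lost region, and any other named region was chosen after its values were seen. The members and all lists were chosen with earlier results of these data known. The procedure was tested on simulated lists made from the solvent peaks. The genes nearest to MYO7B in time course and the sequences of some regions are not reported here.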

Additional observations from a re-analysis of the deposited data

How the results depend on the processing

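Each count and median per locus and time was recomputed with 1 choice changed. Of 231 such values, 158 stayed within 1.5-fold of the reported count or median ratio, 63 moved further and 10 changed sign, and medians were above 0 in 89 of 99. The sign changes came with the AUC per base, where the median log2 ratio was -0.09, -0.16 and -0.19 at MYO7B at 6, 24 and 72 h and -0.08 at PRR5L at 6 h. In that setting, raised regions were counted after seeing the data, with 0, 1 and 1 at KANK4, 1 at each time at MYO7B, 0 at each time at PRR5L, and 1 lowered region at KANK4 at 24 h. With the AUC per base but the scaling of the summed AUC, also chosen after seeing the data, the medians were -0.04 and 0.14 at KANK4 at 6 and 72 h, -0.23, -0.28 and -0.26 at MYO7B, and -0.22 and -0.08 at PRR5L at 6 and 24 h, with raised regions 0 at each time at KANK4 and PRR5L and 1 at MYO7B, and 1 lowered region at KANK4 at 24 and 72 h and at PRR5L at 6 h. With TGFβ1 lists shortened to the length of the solvent list, gained regions numbered 4 at each time at KANK4, 1, 6 and 7 at MYO7B, and 2 and 4 at PRR5L at 6 and 24 h, and the loci together kept a larger gained share than the genome (13.5%, 23.7% and 27.4%, against 8.69%, 11.9% and 13.8%). A minimum AUC of 400 left MYO7B with 2 and 9 gained regions at 6 and 24 h. Counting peaks as shared only where 50% of each overlapped gave PRR5L 9 and 15 at 6 and 72 h. Gene bodies with 3 kb held 5 at each time at KANK4, 3, 6 and 5 at MYO7B and 2, 7 and 5 at PRR5L, and with 250 kb PRR5L had 14 at 72 h. Without scaling, raised regions were 7 at each time at KANK4, 4 and 4 at MYO7B at 24 and 72 h, and 6, 10 and 9 at PRR5L. At a limit of 1.5-fold they were 7, 7 and 8, then 4 and 4, and 5, 10 and 9, with 1 lowered region at 72 h at MYO7B and 1 at PRR5L. The AP-1 counts were within 1.5-fold in both motif settings.

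No paired analysis was possible because the peaks of both libraries of a condition were called together, so the lists carry no value per replicate, and leaving out a replicate was not possible either. The depth left after filtering is not given in the files, and regions under the AUC threshold of 200 have no value.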
